A study of Homo sapiens with 12 samples.

Results

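ALDH1+ cells were compared with ALDH1- cells of the human breast cancer line MDA-MB-468 that had been kept for 10 days in DMSO. The members are the 6 DMSO libraries of a bulk RNA sequencing series of 12, 3 from ALDH1+ and 3 from ALDH1- cells, chosen by their labels and set against each other in pairs of equal replicate number. All 16327 genes that passed a filter on low counts, of 57783 in the table, were tested. The DMSO cells are the solvent controls of cells that received 0.5 µM EPZ5676, an inhibitor of the histone methyltransferase DOT1L, for the same 10 days. After treatment the cells were separated by fluorescence-activated sorting, and both DMSO groups share the cell line, the growth medium and the solvent. The labels call the replicates biological. They do not say which reagent marked ALDH1, how wide the gates were, or what a shared replicate number stands for. The groups are sorted fractions of 1 cell line, not clones.

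Several aldehyde dehydrogenases of the ALDH1 class oxidise retinaldehyde to retinoic acid, the ligand of the nuclear retinoic acid receptors, and also detoxify other aldehydes. Cells with high aldehyde dehydrogenase activity, found by flow cytometry with a fluorescent substrate, are used in breast cancer research as a population enriched for stem-like cells. MDA-MB-468 is a triple-negative line of basal type with an amplified EGFR gene. In epithelial lines, sorted fractions may differ in which enzyme is expressed, in differentiation state and in how stressed the cells are, and a transcriptome shows all of these at once.

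The 6 libraries held 25441302 to 58004508 counts, and the deepest, ALDH1+ replicate 3, held about as many as 2 of the others together. Levels are given as CPM, read counts brought to a common library size, in replicates 1, 2 and 3 in that order, and differences as log2 of ALDH1+ over ALDH1-. Epithelial markers were high in every library, with KRT8 between 2876 and 3611 CPM, EPCAM between 580 and 781 CPM and EGFR between 4598 and 8713 CPM. The summed level of 18 markers of fibroblasts, endothelium, leukocytes and red cells was 17.6 to 22.6 CPM in ALDH1+ and 19.5 to 25.2 CPM in ALDH1-. COL3A1, LUM, DCN, HBB, MS4A1 and NKG7 were at 0 in all 6, and COL1A1, CSF1R and CD14 made up most of the sum. In a principal component analysis the first component held 52.8% of the variance, and the ALDH1+ library of each pair scored above its ALDH1- partner. ALDH1+ replicate 3 stood farthest out, at 23.1 against -17.4 to 7.5 for the others.

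With the replicate number as a block, 1384 of the 16327 genes differed between ALDH1+ and ALDH1- cells (edgeR's quasi-likelihood test, adjusted p below 0.05), which is 8.48% of those tested. ALDH1+ cells were higher for 564 genes (3.45%) and lower for 820 (5.02%). Counts of called genes in the lists below read against these shares. Most differences were small: the median absolute log2 difference among called genes was 0.33. At least a 2-fold difference was reached by 7 higher and 44 lower genes, and at least 1.5-fold by 25 higher and 115 lower genes. The calls rest on the pairing: without the replicate block no gene was called, with 2904 at an unadjusted p below 0.05 and a smallest adjusted p of 0.161. They also rest on single libraries, since 47 genes were called without ALDH1- replicate 3, 239 without ALDH1+ replicate 2, 312 without ALDH1+ replicate 3, 629 without ALDH1- replicate 2, 789 without ALDH1- replicate 1 and 1618 without ALDH1+ replicate 1. Leaving out all 4 libraries of replicate 1 left 10 calls, of replicate 2 369 and of replicate 3 381.

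**Figure D1:**
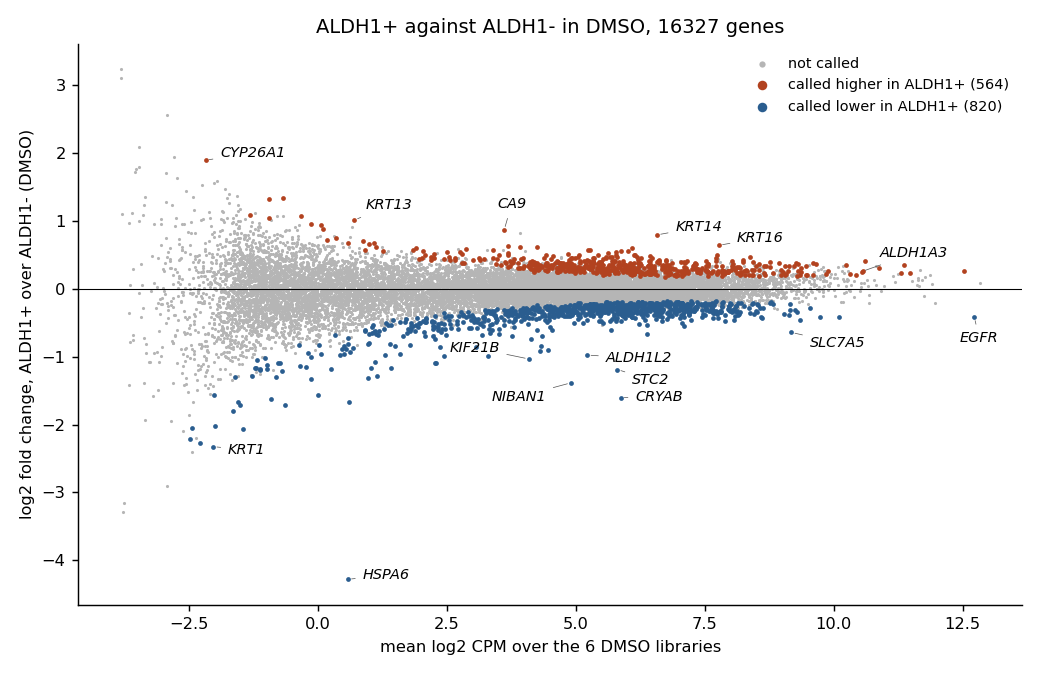
Log2 difference of ALDH1+ over ALDH1- in DMSO (vertical axis) against the mean log2 CPM over the 6 DMSO libraries (horizontal axis) for 16327 genes. The 564 genes called higher and the 820 called lower are coloured; the falls reach farther from 0 than the rises, with HSPA6 at -4.28 and CYP26A1 at 1.90.

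In 3768 genes, 23.1% of those tested, the 3 ALDH1+ values and the 3 ALDH1- values did not overlap. Among called genes this held for 461 of the 564 higher (81.7%) and 668 of the 820 lower (81.5%). The log2 differences of pairs 1 and 2 had a Pearson correlation of 0.43 across 12219 genes, pairs 1 and 3 of 0.35, and pairs 2 and 3 of 0.57. These values describe the same libraries that gave the calls. Of the called genes named below, 28 kept their call with each of the 6 libraries left out in turn, and they are HSPA6, CRYAB, NIBAN1, PLA2G4C, STC2, ALOXE3, SLC43A1, GPNMB, KIF21B, ULBP1, CTH, ALDH1L2, SLC7A11, ADM2, SESN2, FADS2, SLC7A1, BLTP3A, ARHGEF17, CSTF3, SPC24, CLDN8, CCDC34, STC1, GGH, KRT10, KRT16 and KRT14. For the others, the libraries whose omission ended the call are named with them. Leaving out a whole replicate number ended more calls. Without replicate 1, 127 of 136 called genes chosen for naming lost the call, so most of the 28 lost it too. Without replicate 2 it was lost by 64, and without replicate 3 by 63.

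Genes of the ALDH1 class were called in both directions, though the 2 called retinaldehyde dehydrogenases both rose. Of 5 ALDH1 class genes tested, 2 rose, ALDH1A1 and ALDH1A3, and 1 fell, ALDH1L2, against 8.48% called over all genes tested. ALDH1A1 (ENSG00000165092.8), a cytosolic retinaldehyde dehydrogenase, was at 33.2, 27.9 and 38.3 CPM in ALDH1+ and 23.4, 23.7 and 28.6 CPM in ALDH1-. It was higher in ALDH1+ in every pair, but the lowest ALDH1+ value lay below the highest ALDH1- value. The log2 difference was 0.39 ± 0.094 (SE, adjusted p = 0.0254), 1.31-fold higher. ALDH1A3 (ENSG00000184254.12), another retinaldehyde dehydrogenase, was at 1596, 1864 and 1467 CPM in ALDH1+ and 1372, 1361 and 1380.0 CPM in ALDH1-. All 3 ALDH1+ values lay above all 3 ALDH1- values, and the log2 difference was 0.26 ± 0.073 (SE, adjusted p = 0.0417). ALDH1L2 (ENSG00000136010.9), the mitochondrial 10-formyltetrahydrofolate dehydrogenase of one-carbon metabolism, went the other way, with 29.4, 30.4 and 21.5 CPM in ALDH1+ and 72.5, 42.4 and 45.5 CPM in ALDH1-. The groups did not overlap, and the difference of -0.98 ± 0.12 (SE, adjusted p = 0.0016) was a 1.97-fold fall.

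The bases just before the transcription starts of ALDH1A1, ALDH1A3 and HSPA6 are shown because these genes are the 2 retinaldehyde dehydrogenases that rose and the gene that fell most, and their promoters differ in composition (RefSeq, GRCh38.p14). Each run holds the 100 bases up to the start, 5′ to 3′ on the gene's own strand, with CG dinucleotides in capitals. They lie at chr9:72953054-72953153 on the minus strand, chr15:100879731-100879830 on the plus strand and chr1:161524440-161524539 on the plus strand.
ALDH1A1: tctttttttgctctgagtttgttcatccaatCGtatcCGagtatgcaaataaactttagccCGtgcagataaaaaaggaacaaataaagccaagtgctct
ALDH1A3: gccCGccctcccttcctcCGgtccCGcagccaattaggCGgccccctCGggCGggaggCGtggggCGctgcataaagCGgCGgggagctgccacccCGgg
HSPA6: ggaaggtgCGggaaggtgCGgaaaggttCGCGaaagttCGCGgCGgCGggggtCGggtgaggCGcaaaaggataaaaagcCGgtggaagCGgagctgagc
Over the 250 bases before the start, ALDH1A1 has 38.4% G and C and 6 CG dinucleotides, ALDH1A3 has 82.4% and 38, and HSPA6 has 70.8% and 30. The median was 64.8% over 324 genes called higher, 67.2% over 412 called lower and 65.2% over 8161 tested genes with a single start in the table. These values describe the letters and were not tested.

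ALDH1A2, another retinaldehyde dehydrogenase of the class, was at 6.37, 7.93 and 5.19 CPM in ALDH1+ and 7.04, 6.77 and 6.76 CPM in ALDH1-. Its groups overlapped, with a difference of -0.11 ± 0.13 (SE, adjusted p = 0.637). ALDH1B1, a mitochondrial member, differed by -0.022 ± 0.080 (SE, adjusted p = 0.895). ALDH3A1, the stress-inducible enzyme of cornea and stomach, differed by 0.16 ± 0.14 (SE, adjusted p = 0.5). Among the 13 aldehyde dehydrogenases outside the ALDH1 class 1 was called, near the 8.48% called over all genes tested. It was ALDH4A1, which acts in proline breakdown, at 21.2, 19.04 and 22.9 CPM in ALDH1+ and 17.3, 16.5 and 17.6 CPM in ALDH1-. Its difference was 0.29 ± 0.085 (SE, adjusted p = 0.0439). Not called were ALDH7A1, a lysine-breakdown enzyme, at 0.19 (adjusted p = 0.0504), ALDH3B1 at -0.28 (adjusted p = 0.0923), ALDH3A2 at -0.12 (adjusted p = 0.214) and ALDH2, the main acetaldehyde-oxidising enzyme, at -0.075 (adjusted p = 0.736). The remaining 7 lay between -0.33 for ALDH8A1 and 0.092 for ALDH3B2, and none was called. Calls ended without ALDH1+ replicate 2 for all 3 (adjusted p 0.0643 to 0.208), ALDH1- replicate 1 for all 3 (adjusted p 0.0748 to 0.0865), ALDH1- replicate 3 for all 3 (adjusted p 0.113 to 0.202), ALDH1+ replicate 1 for ALDH1A3 and ALDH4A1 (adjusted p 0.0541 to 0.0763), ALDH1+ replicate 3 for ALDH1A1 and ALDH4A1 (adjusted p 0.0956 to 0.142) and ALDH1- replicate 2 for ALDH1A3 and ALDH4A1 (adjusted p 0.0899 to 0.156). With the trend on gene length removed, a setting chosen after the data were seen, ALDH1A1 was at 0.32 (adjusted p = 0.0525), ALDH4A1 at 0.26 (adjusted p = 0.055) and ALDH7A1 at 0.32 (adjusted p = 0.0046).

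**Figure D2:**
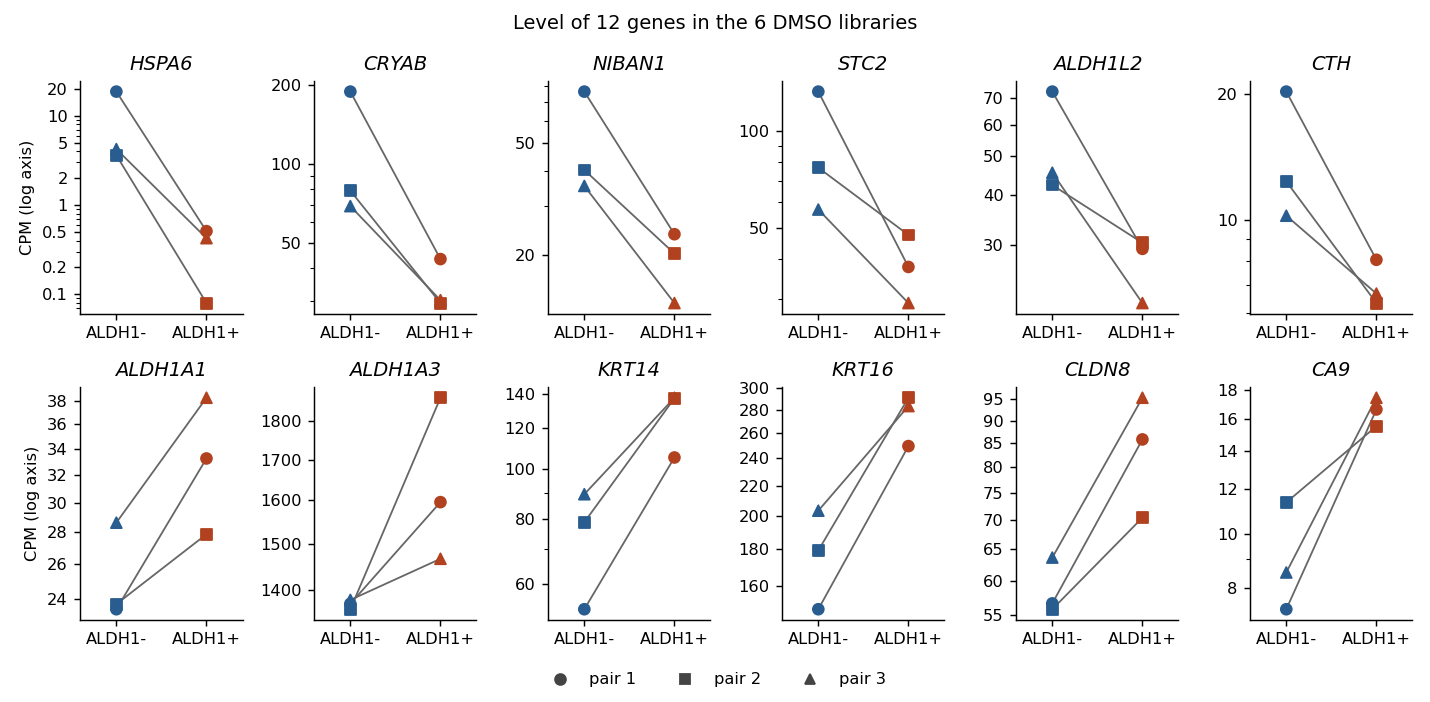
CPM on a log axis of 12 genes in ALDH1- (left in each panel) and ALDH1+ (right) libraries, 1 symbol per replicate number, with a line joining libraries of equal number. In all 12 genes the 3 lines run in 1 direction; ALDH1A1 is the only 1 of the 12 whose groups overlap, with 27.9 CPM in an ALDH1+ library and 28.6 CPM in an ALDH1- library.

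Retinoic acid is bound in the cytosol by CRABP proteins and broken down by CYP26 enzymes, whose genes its receptors switch on. Of 19 retinoid genes tested, 2 rose and 1 fell, against 8.48% called over all genes tested. CRABP2, a cytosolic retinoic acid carrier, was at 226, 234 and 309 CPM in ALDH1+ and 149.5, 201 and 189.5 CPM in ALDH1-. The groups did not overlap, and the difference was 0.50 ± 0.089 (SE, adjusted p = 0.00903). CYP26A1 (ENSG00000095596.7), the retinoic acid hydroxylase, was near the floor of detection, with 12, 3 and 22 counts in ALDH1+ and 3, 2 and 2 counts in ALDH1-. Its summed counts per library size were 3.93 times as high in ALDH1+ (95% interval 1.73 to 10.5, counting error only), and the fitted difference was 1.90 ± 0.54 (SE, adjusted p = 0.0425). RARA, the retinoic acid receptor alpha, fell, at 26.6, 23.7 and 20.5 CPM in ALDH1+ and 29.4, 29.99 and 30.8 CPM in ALDH1-, a difference of -0.36 ± 0.090 (SE, adjusted p = 0.0274). Other members were not called, among them RARB, a receptor gene that retinoic acid induces, at -0.56 (adjusted p = 0.311), DHRS3, a retinaldehyde reductase, at -0.13 (adjusted p = 0.589) and CRABP1 at 0.48 (adjusted p = 0.292). The call was lost without ALDH1- replicate 3 for all 3 (adjusted p 0.0777 to 0.204), ALDH1+ replicate 3 for CYP26A1 and RARA (adjusted p 0.144 to 0.176), ALDH1- replicate 2 for CYP26A1 and RARA (adjusted p 0.098 to 0.107), ALDH1+ replicate 1 for CYP26A1 (adjusted p = 0.0888), ALDH1+ replicate 2 for RARA (adjusted p = 0.0628) and ALDH1- replicate 1 for CYP26A1 (adjusted p = 0.0761). CYP26A1 was at 1.83 (adjusted p = 0.0532) with the length trend removed.

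The deepest fall of any called gene was in a heat shock gene, while most called chaperone genes rose. Of 16 heat shock genes tested, 5 rose and 2 fell, against 8.48% called over all genes tested. HSPA6 (ENSG00000173110.6), a strictly stress-inducible member of the HSP70 family, had 508, 106 and 110 counts in ALDH1- and 14, 2 and 24 in ALDH1+, or 0.509, 0.0797 and 0.425 CPM in ALDH1+ and 18.6, 3.60 and 4.22 CPM in ALDH1-. Every ALDH1- library lay above every ALDH1+ library, and ALDH1- replicate 1 held most of the counts. Summed counts were 24.3 times lower in ALDH1+ (95% interval 17.7 to 34.3, counting error only), and the fitted difference was -4.28 ± 0.48 (SE, adjusted p = 0.00084). CRYAB (ENSG00000109846.3), a small heat shock protein that holds unfolded proteins, was at 43.3, 29.4 and 30.1 CPM in ALDH1+ and 189, 79.1 and 68.99 CPM in ALDH1-. The groups did not overlap, and CRYAB fell by 3.04-fold, a difference of -1.60 ± 0.18 (SE, adjusted p = 0.00084). In bulk RNA, fewer cells that express a gene and less RNA per cell cannot be told apart.

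The chaperones that rose did so by far less. HSP90AA1, the cytosolic HSP90, was at 2720.0, 2903 and 3345 CPM in ALDH1+ and 2152, 2438 and 2430.0 CPM in ALDH1-, a difference of 0.35 ± 0.071 (SE, adjusted p = 0.0148) with groups that did not overlap. HSPE1 and HSPD1, the mitochondrial co-chaperonin and chaperonin, differed by 0.55 (adjusted p = 0.0332) and 0.21 (adjusted p = 0.0414), DNAJA1, an HSP70 co-chaperone, by 0.24 (adjusted p = 0.0336), and HSPB1, a small heat shock protein like CRYAB, by 0.37 (adjusted p = 0.0441). HSPA1A, an inducible HSP70 gene, was at 61.4, 89.7 and 92.5 CPM in ALDH1+ and 65.7, 75.9 and 65.3 CPM in ALDH1-, with overlapping groups and a difference of 0.23 ± 0.11 (SE, adjusted p = 0.193). The HSP70 genes are close copies and their counts are uncertain. HSPD1, HSPB1 and HSPA1A are named here after their values were seen. With the length trend removed 3 members were called higher and 2 lower, and DNAJA1 and HSPB1 lost their calls (adjusted p = 0.086 and 0.187). When single libraries were left out, calls ended without ALDH1+ replicate 2 for all 5 (adjusted p 0.0501 to 0.13), ALDH1- replicate 3 for all 5 (adjusted p 0.1 to 0.222), ALDH1+ replicate 3 for HSPE1, HSPD1, DNAJA1 and HSPB1 (adjusted p 0.0628 to 0.191), ALDH1- replicate 1 for HSPE1, HSPD1, DNAJA1 and HSPB1 (adjusted p 0.0557 to 0.108), ALDH1- replicate 2 for HSPE1, HSPD1 and DNAJA1 (adjusted p 0.0518 to 0.0905) and ALDH1+ replicate 1 for HSPD1 (adjusted p = 0.0814). HSPA6 and CRYAB kept their calls in each.

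Genes of the amino acid response were among those that fell. The transcription factor ATF4 is translated when amino acids are short or the endoplasmic reticulum is stressed, and it switches on transporters and enzymes of amino acid supply. Of 24 genes in the list for the unfolded protein response and ATF4, 5 fell, 6 rose and 13 were not called. Over all genes tested 8.48% were called. SESN2, SLC7A5, CHAC1, ASNS and TRIB3 fell, which are amino acid or stress genes known as ATF4 targets. MANF, SDF2L1, CRELD2, HSP90B1, PDIA4 and CALR rose, which are chaperones and factors of the endoplasmic reticulum. CHAC1, ASNS, TRIB3, MANF, SDF2L1 and CALR are named after their values were seen.

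SESN2, a leucine sensor and inhibitor of mTORC1, was at 17.4, 17.1 and 13.5 CPM in ALDH1+ and 33.7, 25.3 and 20.2 CPM in ALDH1-, without overlap, and fell by 1.62-fold, -0.70 ± 0.10 (SE, adjusted p = 0.00443). SLC7A5, the light chain of the large neutral amino acid transporter, was at 468, 532 and 409 CPM in ALDH1+ and 944, 605 and 655 CPM in ALDH1-. It was 1.56-fold lower, -0.64 ± 0.12 (SE, adjusted p = 0.00972). CHAC1 (ENSG00000128965.7), which degrades glutathione, was at 5.28, 6.41 and 6.60 CPM in ALDH1+ and 14.9, 9.96 and 9.45 CPM in ALDH1-, a difference of -0.85 ± 0.21 (SE, adjusted p = 0.0288). ASNS, asparagine synthetase, was at 63.1, 61.7 and 63.3 CPM in ALDH1+ and 124, 74.4 and 75.5 CPM in ALDH1-. In these genes the ALDH1- library of replicate 1 was the highest of the 6. ASNS differed by -0.51 (adjusted p = 0.0336) and TRIB3, a pseudokinase that restrains ATF4 signalling, by -0.40 (adjusted p = 0.0436). ATF4 mRNA itself was at 627, 602 and 742 CPM in ALDH1+ and 809, 639 and 662 CPM in ALDH1-, with overlapping groups and a difference of -0.093 ± 0.089 (SE, adjusted p = 0.545). DDIT3, the stress factor CHOP, differed by -0.42 ± 0.15 (SE, adjusted p = 0.0802). In the leave-outs, calls were lost without ALDH1- replicate 3 for all 4 (adjusted p 0.0651 to 0.138), ALDH1+ replicate 1 for CHAC1, ASNS and TRIB3 (adjusted p 0.0646 to 0.121), ALDH1+ replicate 2 for CHAC1, ASNS and TRIB3 (adjusted p 0.0962 to 0.126), ALDH1- replicate 1 for CHAC1, ASNS and TRIB3 (adjusted p 0.109 to 0.2) and ALDH1+ replicate 3 for TRIB3 (adjusted p = 0.053).

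Other genes with large falls or small adjusted p, outside that list, included transporters and an enzyme of amino acid supply. NIBAN1, a stress-induced regulator of translation factor phosphorylation, was at 23.8, 20.3 and 13.6 CPM in ALDH1+ and 76.2, 40.2 and 35.3 CPM in ALDH1-, a 2.61-fold fall (-1.39 ± 0.16 SE, adjusted p = 0.000893). STC2, a secreted glycoprotein induced by endoplasmic reticulum stress, was at 37.7, 47.5 and 29.1 CPM in ALDH1+ and 133, 76.99 and 56.98 CPM in ALDH1-, a 2.28-fold fall (-1.19 ± 0.17 SE, adjusted p = 0.00388). Neither gene's groups overlapped, and both were highest in ALDH1- replicate 1. CTH, which makes cysteine from cystathionine, was at 8.04, 6.33 and 6.67 CPM in ALDH1+ and 20.3, 12.4 and 10.2 CPM in ALDH1- and fell by 1.98-fold. SLC7A11, the cystine importer, was at 13.2, 14.7 and 15.3 CPM in ALDH1+ and 34.8, 23.1 and 25.1 CPM in ALDH1- and fell by 1.88-fold. SLC7A1, the cationic amino acid transporter, was at 122, 123 and 97.6 CPM in ALDH1+ and 188, 151 and 158 CPM in ALDH1- and fell by 1.46-fold. SLC43A1, a transporter of large neutral amino acids, was at 3.49, 3.27 and 3.01 CPM in ALDH1+ and 9.60, 5.85 and 5.72 CPM in ALDH1- and fell by 2.14-fold. ADM2, an adrenomedullin-type peptide gene named after its values were seen, fell by 1.86-fold. The adjusted p of these 5 genes ran from 0.00361 to 0.00447, and in each the groups did not overlap.

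Of the endoplasmic reticulum genes in the list, the 6 that rose differed by less than 0.4 on the log2 scale. HSP90B1, the HSP90 of the endoplasmic reticulum, was at 517, 569.6 and 586 CPM in ALDH1+ and 435, 469 and 474 CPM in ALDH1-, a difference of 0.28 ± 0.059 (SE, adjusted p = 0.0169). PDIA4, a disulfide isomerase, was at 163, 184 and 187 CPM in ALDH1+ and 143, 153 and 154 CPM in ALDH1-, a difference of 0.25 ± 0.054 (SE, adjusted p = 0.0183). CRELD2 differed by 0.31 (adjusted p = 0.0183), MANF by 0.38 (adjusted p = 0.0218), SDF2L1 by 0.33 (adjusted p = 0.0308) and CALR by 0.21 (adjusted p = 0.0409). HSPA5, the central chaperone of that compartment, was at 0.071 (adjusted p = 0.578), and HYOU1 was at -0.18 (adjusted p = 0.0584). The median of all 24 genes was -0.19, against -0.008 over all genes tested, and it was -0.42 in pair 1, -0.073 in pair 2 and -0.004 in pair 3. Single libraries carried some of these calls, which ended without ALDH1+ replicate 2 for all 6 (adjusted p 0.0601 to 0.103), ALDH1- replicate 3 for all 6 (adjusted p 0.095 to 0.191), ALDH1+ replicate 3 for PDIA4, CRELD2, MANF, SDF2L1 and CALR (adjusted p 0.0541 to 0.154), ALDH1- replicate 2 for MANF, SDF2L1 and CALR (adjusted p 0.0663 to 0.112) and ALDH1- replicate 1 for SDF2L1 and CALR (adjusted p 0.0508 to 0.054). With the length trend removed, 4 members were called higher and 7 lower, DDIT3 then among the latter at -0.58 (adjusted p = 0.0178). SDF2L1 and CALR lost their calls (adjusted p = 0.126 and 0.0998).

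Other genes with large falls had varied roles. KIF21B, a kinesin motor, was at 13.2, 13.7 and 9.24 CPM in ALDH1+ and 33.1, 22.5 and 18.8 CPM in ALDH1-, a 2.05-fold fall (-1.03 ± 0.12 SE, adjusted p = 0.000934). PLA2G4C, a cytosolic phospholipase, was at 1.35, 1.39 and 1.34 CPM in ALDH1+ and 5.39, 2.89 and 2.50 CPM in ALDH1- and fell by 2.42-fold. ALOXE3, a skin lipoxygenase, was at 2.37, 2.15 and 1.10 CPM in ALDH1+ and 6.53, 3.64 and 2.38 CPM in ALDH1- and fell by 2.25-fold. GPNMB, a transmembrane glycoprotein, was at 3.31, 3.86 and 2.89 CPM in ALDH1+ and 10.5, 7.005 and 4.68 CPM in ALDH1- and fell by 2.13-fold. ULBP1 and NCR3LG1 encode ligands of the natural killer cell receptors NKG2D and NKp30. ULBP1 was at 4.29, 4.10 and 3.27 CPM in ALDH1+ and 10.8, 6.80 and 5.84 CPM in ALDH1-, a difference of -0.99 ± 0.14 (SE, adjusted p = 0.00388). NCR3LG1 was at 1.67, 1.35 and 1.03 CPM in ALDH1+ and 3.48, 2.38 and 3.03 CPM in ALDH1-, a difference of -1.17 ± 0.20 (SE, adjusted p = 0.00854). TENM1, a teneurin of cell contacts, was at 1.71, 1.39 and 1.20 CPM in ALDH1+ and 2.86, 3.54 and 2.76 CPM in ALDH1-, a difference of -1.08 ± 0.19 (SE, adjusted p = 0.0088). BLTP3A, a lipid transfer protein of the bridge type, fell by 1.39-fold with an adjusted p of 0.00388. In all of these genes the groups did not overlap. These calls depended on single libraries and were lost without ALDH1- replicate 3 for NCR3LG1 and TENM1 (adjusted p 0.0664 to 0.0777).

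Among keratins of stratified epithelium, KRT14, KRT16, KRT10 and KRT13 rose and KRT1 fell, and other keratins are given with their lists. KRT14, the basal-layer partner of KRT5, was at 105, 137 and 138 CPM in ALDH1+ and 53.5, 78.96 and 89.5 CPM in ALDH1-. All 3 ALDH1+ values lay above all 3 ALDH1- values, a 1.74-fold rise (0.80 ± 0.089 SE, adjusted p = 0.00084). KRT16, induced in wounded and activated epidermis, was at 249, 291 and 283 CPM in ALDH1+ and 148, 179 and 203 CPM in ALDH1-, also without overlap, a 1.56-fold rise (0.64 ± 0.090 SE, adjusted p = 0.00388). KRT10, of the suprabasal layers, was at 64.5, 100.4 and 91.2 CPM in ALDH1+ and 43.2, 64.4 and 60.7 CPM in ALDH1-, a 1.52-fold rise (0.60 ± 0.093 SE, adjusted p = 0.00471). KRT13, of internal stratified epithelia, was low, at 1.85, 2.71 and 2.14 CPM in ALDH1+ and 1.32, 1.12 and 0.921 CPM in ALDH1-, and rose 2.02-fold (1.01 ± 0.17 SE, adjusted p = 0.00854). KRT5, KRT17 and KRT6A, named after their values were seen, differed by 0.19 (adjusted p = 0.0642), 0.40 (adjusted p = 0.0622) and 0.19 (adjusted p = 0.117), each with overlapping groups. KRT14, KRT16 and KRT17 are close copies of one another, so reads may have been split between them or lost.

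Of 28 keratinocyte differentiation genes tested, 7 rose and 2 fell, against 8.48% called over all genes tested. The median difference was 0.24. KLK5, a desquamation protease, was at 748, 766 and 864 CPM in ALDH1+ and 544, 663 and 687 CPM in ALDH1-, a difference of 0.33 ± 0.063 (SE, adjusted p = 0.0121). KLK7, its partner protease, differed by 0.75 (adjusted p = 0.0441), SPRR1B, a cornified envelope precursor, by 0.56 (adjusted p = 0.0339) and S100A8, a calprotectin subunit, by 0.54 (adjusted p = 0.0354), these 3 named after their values were seen. The falls were KRT80, named after its values were seen, at -0.24 (adjusted p = 0.0229), and KRT1, the suprabasal partner of KRT10, which had 2, 3 and 3 counts in ALDH1+ and 11, 7 and 14 in ALDH1-. Summed KRT1 counts were 5.37 times lower in ALDH1+ (95% interval 2.43 to 13.5, counting error only), while KRT10 rose. Calls ended without ALDH1- replicate 3 for all 7 (adjusted p 0.0632 to 0.251), ALDH1+ replicate 2 for KLK7, SPRR1B, S100A8, KRT80 and KRT1 (adjusted p 0.0539 to 0.101), ALDH1+ replicate 3 for KLK7, SPRR1B, S100A8, KRT80 and KRT1 (adjusted p 0.0994 to 0.191), ALDH1- replicate 1 for KLK7, SPRR1B and S100A8 (adjusted p 0.0594 to 0.124) and ALDH1- replicate 2 for SPRR1B, S100A8 and KRT80 (adjusted p 0.0527 to 0.102). With the length trend removed, 3 members were called higher and 2 lower, and the median was 0.17. KLK5, KLK7, SPRR1B and S100A8 then lost their calls (adjusted p = 0.0736, 0.0755, 0.0914 and 0.0514).

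CLDN8, a tight junction claudin, was the non-keratin gene with the smallest p among the rises, at 85.8, 70.4 and 95.3 CPM in ALDH1+ and 56.7, 55.9 and 63.7 CPM in ALDH1-, a difference of 0.51 ± 0.064 (SE, adjusted p = 0.00167) without overlap. CCDC34, a coiled-coil gene, was at 63.01, 71.4 and 104 CPM in ALDH1+ and 43.7, 55.1 and 61.8 CPM in ALDH1-, a difference of 0.55 ± 0.072 (SE, adjusted p = 0.00229). GGH, which trims folate polyglutamates, was at 38.6, 50.98 and 52.8 CPM in ALDH1+ and 24.6, 34.8 and 36.3 CPM in ALDH1-, a difference of 0.58 ± 0.099 (SE, adjusted p = 0.00854). SPC24, a kinetochore subunit, and CSTF3, an mRNA 3' end processing factor, rose by 1.42-fold and 1.33-fold, with adjusted p of 0.00426 and 0.00388. SELENOP, a secreted selenium carrier, was at 17.3, 12.7 and 17.7 CPM in ALDH1+ and 9.79, 10.2 and 10.9 CPM in ALDH1-, a difference of 0.64 ± 0.17 (SE, adjusted p = 0.0317). Other risers were TNNC1, a troponin, at 0.68 (adjusted p = 0.0322), and COMMD3 at 0.60 (adjusted p = 0.0293). MED30, a Mediator subunit, rose by 0.58 (adjusted p = 0.0183) and C6orf15 by 0.58 (adjusted p = 0.0213). With the trend on gene length removed, TNNC1 and C6orf15 were not called (adjusted p = 0.0651 and 0.0975). The call was lost without ALDH1- replicate 3 for all 5 (adjusted p 0.102 to 0.162), ALDH1+ replicate 2 for TNNC1, COMMD3, MED30 and C6orf15 (adjusted p 0.0612 to 0.0763), ALDH1+ replicate 3 for SELENOP, TNNC1, COMMD3 and MED30 (adjusted p 0.058 to 0.182), ALDH1- replicate 1 for SELENOP, TNNC1, COMMD3 and C6orf15 (adjusted p 0.0546 to 0.11) and ALDH1- replicate 2 for SELENOP, TNNC1 and COMMD3 (adjusted p 0.0552 to 0.13).

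Genes known from low oxygen were mixed. CA9, the carbonic anhydrase that is a standard marker of hypoxia, was at 16.6, 15.5 and 17.4 CPM in ALDH1+ and 7.33, 11.4 and 8.52 CPM in ALDH1-. Groups did not overlap, and CA9 rose 1.82-fold (0.87 ± 0.15 SE, adjusted p = 0.00903). STC1, a stanniocalcin related to STC2 that went the opposite way, was at 56.8, 43.3 and 38.6 CPM in ALDH1+ and 32.4, 30.3 and 29.9 CPM in ALDH1-, a 1.48-fold rise (0.57 ± 0.088 SE, adjusted p = 0.00491). EDN2, an endothelin, was at 22.2, 17.9 and 16.3 CPM in ALDH1+ and 13.6, 11.7 and 11.02 CPM in ALDH1-, a difference of 0.62 ± 0.11 (SE, adjusted p = 0.00783). Of the 32 genes in the glycolysis and hypoxia list, 3 rose and 0 fell, near the 8.48% called over all genes tested. The 3 were CA9, LDHA, lactate dehydrogenase A, at 0.31 (adjusted p = 0.0139) and PGK1, phosphoglycerate kinase, at 0.21 (adjusted p = 0.0369). VEGFA, the vascular growth factor, was at 117, 129.9 and 135 CPM in ALDH1+ and 143, 147 and 139.5 CPM in ALDH1-, a difference of -0.17 ± 0.087 (SE, adjusted p = 0.234). ADM, another hypoxia-induced gene, differed by 0.004 ± 0.11 (SE, adjusted p = 0.988). VEGFA and ADM are named after their values were seen, and the list's median was 0.052. When single libraries were left out, calls ended without ALDH1- replicate 3 for all 4 (adjusted p 0.0623 to 0.184), ALDH1+ replicate 2 for LDHA and PGK1 (adjusted p 0.0611 to 0.137), ALDH1+ replicate 3 for PGK1 (adjusted p = 0.0808), ALDH1- replicate 1 for PGK1 (adjusted p = 0.0568) and ALDH1- replicate 2 for PGK1 (adjusted p = 0.0859).

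Among receptor, adhesion and matrix genes the calls were mostly falls. EGFR, the growth factor receptor amplified in this line, was at 6902, 6366 and 4598 CPM in ALDH1+ and 8713, 7510.0 and 7339 CPM in ALDH1-. Groups did not overlap, and EGFR was 1.33-fold lower (-0.42 ± 0.084 SE, adjusted p = 0.0147). MET, the hepatocyte growth factor receptor, was at 191, 207 and 169 CPM in ALDH1+ and 224, 242 and 242 CPM in ALDH1-, a difference of -0.33 ± 0.077 (SE, adjusted p = 0.0216). IGFBP5, a binding protein of insulin-like growth factors, differed by -0.65 (adjusted p = 0.0322). With it 3 of 25 growth factor genes fell and 0 rose, where 5.02% of all genes tested were called lower and 3.45% higher. The laminin chains LAMA3 and LAMB3, which help anchor basal cells to the basement membrane, differed by -0.41 (adjusted p = 0.0183) and -0.43 (adjusted p = 0.00723). LAMB3 was at 182, 199 and 181 CPM in ALDH1+ and 279, 242 and 239 CPM in ALDH1-. The basal list, which holds laminin genes as well as KRT14, had 3 genes higher and 5 lower of 18. In the leave-outs, calls were lost without ALDH1- replicate 3 for all 5 (adjusted p 0.0651 to 0.177), ALDH1+ replicate 3 for EGFR, MET, IGFBP5 and LAMA3 (adjusted p 0.0516 to 0.155), ALDH1+ replicate 2 for MET and IGFBP5 (adjusted p 0.0545 to 0.0781) and ALDH1- replicate 1 for IGFBP5 (adjusted p = 0.128).

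Of 21 matrix and protease genes, 8 fell and 0 rose, with a median of -0.25 and pair medians from -0.26 to -0.19. COL12A1, a fibril-associated collagen, was at 15.5, 14.7 and 10.7 CPM in ALDH1+ and 24.9, 20.4 and 21.9 CPM in ALDH1-, a difference of -0.74 ± 0.12 (SE, adjusted p = 0.00688). COL4A2 of the basement membrane collagen differed by -0.45 (adjusted p = 0.0169), THBS1, thrombospondin, by -0.38 (adjusted p = 0.019), and the laminin chains LAMC1 and LAMA5 by -0.31 (adjusted p = 0.0183) and -0.28 (adjusted p = 0.0238). Of 11 genes of the epithelial-mesenchymal transition, 2 fell and 0 rose, where 5.02% of all genes tested were called lower. VIM, vimentin, was at 75.8, 60.7 and 72.8 CPM in ALDH1+ and 127, 86.99 and 92.8 CPM in ALDH1-, a difference of -0.53 ± 0.11 (SE, adjusted p = 0.0174). AXL, a receptor tyrosine kinase, was at 3.02, 2.59 and 2.74 CPM in ALDH1+ and 4.95, 4.12 and 3.72 CPM in ALDH1-, a difference of -0.60 ± 0.12 (SE, adjusted p = 0.0139). AXL, ARHGEF17 at -0.44 (adjusted p = 0.00443) and FOXF2 at -0.69 (adjusted p = 0.0356) were the 3 of 16 YAP target genes that fell, and 0 rose. The values of EGFR, MET, LAMB3, COL12A1, VIM and AXL did not overlap between the groups. Single libraries carried some of these calls, which ended without ALDH1- replicate 3 for all 8 (adjusted p 0.0632 to 0.209), ALDH1+ replicate 3 for COL4A2, THBS1, LAMC1, LAMA5 and FOXF2 (adjusted p 0.075 to 0.111), ALDH1+ replicate 2 for COL4A2, LAMA5, VIM and FOXF2 (adjusted p 0.0511 to 0.0841), ALDH1- replicate 1 for LAMA5 and VIM (adjusted p 0.0507 to 0.0576), ALDH1+ replicate 1 for FOXF2 (adjusted p = 0.0732) and ALDH1- replicate 2 for FOXF2 (adjusted p = 0.0867). With the length trend removed, 6 matrix genes were lower and 0 higher, and LAMA5 lost its call (adjusted p = 0.0682).

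Notch receptors fell while a Notch target rose. Of 24 Notch and WNT genes tested, 1 rose and 5 fell, where 3.45% of all genes tested were called higher and 5.02% lower. NOTCH2 was at 169, 169.9 and 130.1 CPM in ALDH1+ and 190.2, 202 and 208 CPM in ALDH1-, a difference of -0.37 ± 0.090 (SE, adjusted p = 0.0266), and NOTCH1 differed by -0.30 (adjusted p = 0.0436). DLL4, a Notch ligand, had 4, 0 and 3 counts in ALDH1+ and 16, 7 and 6 in ALDH1-, and DKK3, a relative of the WNT inhibitor DKK1, had 2, 0 and 4 against 9, 6 and 7. DKK1 itself, named after its values were seen, differed by -0.39 (adjusted p = 0.0449). HES1, a repressor that Notch switches on, was at 115, 107 and 149.7 CPM in ALDH1+ and 92.9, 95.6 and 90.3 CPM in ALDH1-, without overlap, a difference of 0.41 ± 0.098 (SE, adjusted p = 0.0234). ID1, ID2 and ID3, dominant-negative helix-loop-helix factors induced by BMP, were the 3 of 24 TGF-beta and BMP genes that rose, by 0.40 (adjusted p = 0.0344), 0.27 (adjusted p = 0.0291) and 0.37 (adjusted p = 0.016). ID1 ran from 11.1 to 35.6 CPM in ALDH1+ and from 9.35 to 21.4 CPM in ALDH1-, so its groups overlap. These calls depended on single libraries and were lost without ALDH1- replicate 3 for all 9 (adjusted p 0.111 to 0.281), ALDH1+ replicate 2 for NOTCH2, NOTCH1, DLL4, DKK3, DKK1, ID1 and ID2 (adjusted p 0.0551 to 0.153), ALDH1+ replicate 3 for NOTCH2, NOTCH1, DLL4, DKK3, HES1, ID1 and ID2 (adjusted p 0.0784 to 0.213), ALDH1- replicate 1 for DLL4, DKK3, DKK1, HES1 and ID1 (adjusted p 0.0561 to 0.209), ALDH1- replicate 2 for NOTCH2 and NOTCH1 (adjusted p 0.0579 to 0.171) and ALDH1+ replicate 1 for DKK1 (adjusted p = 0.14). With the length trend removed the adjusted p was 0.0774 for NOTCH1, 0.135 for ID1, 0.0978 for ID2 and 0.0808 for ID3.

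Of 17 tested genes used as markers of stem-like cells, 3 were called, where 8.48% were called over all genes. The 2 that rose were EPCAM, an epithelial adhesion protein, at 0.20 (adjusted p = 0.0469) and BCL11B, a zinc finger factor, at 0.38 (adjusted p = 0.0346), and the 1 that fell was ITGA6, the alpha6 integrin, at -0.22 (adjusted p = 0.0354). CD44, the hyaluronan receptor, was at 3641, 3367 and 3037 CPM in ALDH1+ and 3756, 3549 and 3447 CPM in ALDH1-, with overlapping groups and a difference of -0.10 ± 0.065 (SE, adjusted p = 0.342). PROM1, the CD133 antigen, was at 79.9, 65.9 and 73.8 CPM in ALDH1+ and 59.2, 60.3 and 72.9 CPM in ALDH1-, a difference of 0.19 ± 0.072 (SE, adjusted p = 0.108). MYC was at 232, 228 and 223 CPM in ALDH1+ and 229.8, 231 and 209.9 CPM in ALDH1-, a difference of 0.027 ± 0.053 (SE, adjusted p = 0.791). CD44, PROM1 and MYC are named after their values were seen. DOT1L, the methyltransferase that the inhibitor of the series targets, was at 75.7, 68.7 and 60.8 CPM in ALDH1+ and 75.8, 85.3 and 76.5 CPM in ALDH1-, a difference of -0.22 ± 0.072 (SE, adjusted p = 0.0712). Of 14 genes of its complexes, 2 fell, among them KMT2A, a histone H3 methyltransferase, at -0.34 (adjusted p = 0.0397), which lost the call with the length trend removed (adjusted p = 0.074). With that trend removed EPCAM and ITGA6 also lost their calls (adjusted p = 0.132 and 0.0564), BCL11B remained called and PROM1 was called at 0.24 (adjusted p = 0.0333). Calls ended without ALDH1+ replicate 2 for all 4 (adjusted p 0.0591 to 0.138), ALDH1- replicate 2 for all 4 (adjusted p 0.0597 to 0.0886), ALDH1- replicate 3 for all 4 (adjusted p 0.111 to 0.256), ALDH1+ replicate 1 for EPCAM, BCL11B and ITGA6 (adjusted p 0.0595 to 0.0998), ALDH1+ replicate 3 for EPCAM, ITGA6 and KMT2A (adjusted p 0.115 to 0.201) and ALDH1- replicate 1 for EPCAM, BCL11B and ITGA6 (adjusted p 0.0782 to 0.109).

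Among DNA replication genes every call was a rise. Of 26 tested, 8 rose and 0 fell, against 8.48% called over all genes tested. The median was 0.16, and 24 had a positive difference. GINS2, a subunit of the replicative helicase, was at 83.5, 89.98 and 95.5 CPM in ALDH1+ and 59.1, 67.6 and 69.95 CPM in ALDH1-, a difference of 0.45 ± 0.082 (SE, adjusted p = 0.0105) without overlap. PCNA, the sliding clamp, was at 615, 659 and 753 CPM in ALDH1+ and 504, 528 and 561 CPM in ALDH1-, a difference of 0.34 ± 0.073 (SE, adjusted p = 0.0169). TYMS, thymidylate synthase, differed by 0.34 (adjusted p = 0.0143), GINS1 by 0.41 (adjusted p = 0.0138) and CCNE2, cyclin E2, by 0.36 (adjusted p = 0.0289). PCLAF, a PCNA-binding factor outside the list, was at 18.6, 24.3 and 28.1 CPM in ALDH1+ and 11.9, 16.1 and 18.2 CPM in ALDH1-, a difference of 0.62 ± 0.10 (SE, adjusted p = 0.00723). Of 27 G2/M genes, 2 rose and 0 fell, where 8.48% of all genes tested were called. The 2 were CDK1 at 0.37 (adjusted p = 0.0161) and BIRC5, survivin, at 0.24 (adjusted p = 0.0268). MKI67, the proliferation antigen named after its values were seen, ranged from 373 to 418 CPM in ALDH1+ and from 358 to 550.1 CPM in ALDH1-, a difference of -0.21 ± 0.14 (SE, adjusted p = 0.348). The call was lost without ALDH1- replicate 3 for all 8 (adjusted p 0.0651 to 0.145), ALDH1+ replicate 2 for PCNA, GINS1, CCNE2, CDK1 and BIRC5 (adjusted p 0.0548 to 0.103), ALDH1- replicate 1 for CCNE2 and BIRC5 (adjusted p 0.0541 to 0.0861), ALDH1+ replicate 1 for CCNE2 (adjusted p = 0.0763), ALDH1+ replicate 3 for BIRC5 (adjusted p = 0.085) and ALDH1- replicate 2 for BIRC5 (adjusted p = 0.062). With the length trend removed, 5 replication genes were higher, and PCNA lost its call (adjusted p = 0.0548).

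Genes of the mitochondria and ribosome had list medians above that of all genes tested. Of 27 oxidative phosphorylation genes, 9 rose and 1 fell, against 8.48% called over all genes tested, and the median of 0.31 was the highest of the 32 lists. ATP5ME, a small subunit of ATP synthase, was at 40.2, 47.9 and 53.5 CPM in ALDH1+ and 33.5, 35.6 and 33.9 CPM in ALDH1-, a difference of 0.46 ± 0.10 (SE, adjusted p = 0.0183). COX7C of cytochrome oxidase differed by 0.35 (adjusted p = 0.0244) and CYCS, cytochrome c, by 0.32 (adjusted p = 0.0246). NDUFA13 of complex I was the 1 that fell, at -0.62 (adjusted p = 0.032), with 1.42 to 3.45 CPM over the 6 libraries. All 40 ribosomal protein genes had a positive difference, with a median of 0.22, and 3 were called, RPL24 at 0.39 (adjusted p = 0.0368), RPL32 at 0.28 (adjusted p = 0.0409) and RPL7 at 0.27 (adjusted p = 0.041). The medians of both lists were small in pair 1 and large in pair 3, at 0.068, 0.26 and 0.51 in pairs 1, 2 and 3 for oxidative phosphorylation and 0.017, 0.22 and 0.43 for ribosomal proteins. When single libraries were left out, calls ended without ALDH1+ replicate 3 for all 7 (adjusted p 0.0835 to 0.167), ALDH1- replicate 3 for all 7 (adjusted p 0.113 to 0.196), ALDH1+ replicate 2 for COX7C, CYCS, NDUFA13, RPL24, RPL32 and RPL7 (adjusted p 0.0645 to 0.114), ALDH1- replicate 2 for ATP5ME, COX7C, CYCS, RPL24, RPL32 and RPL7 (adjusted p 0.052 to 0.137) and ALDH1- replicate 1 for NDUFA13 (adjusted p = 0.127). Over the leave-outs, 0 to 18 oxidative phosphorylation genes and 0 to 20 ribosomal protein genes were called higher, the largest numbers without ALDH1+ replicate 1. NDUFA13 is named after its values were seen.

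**Figure D3:**
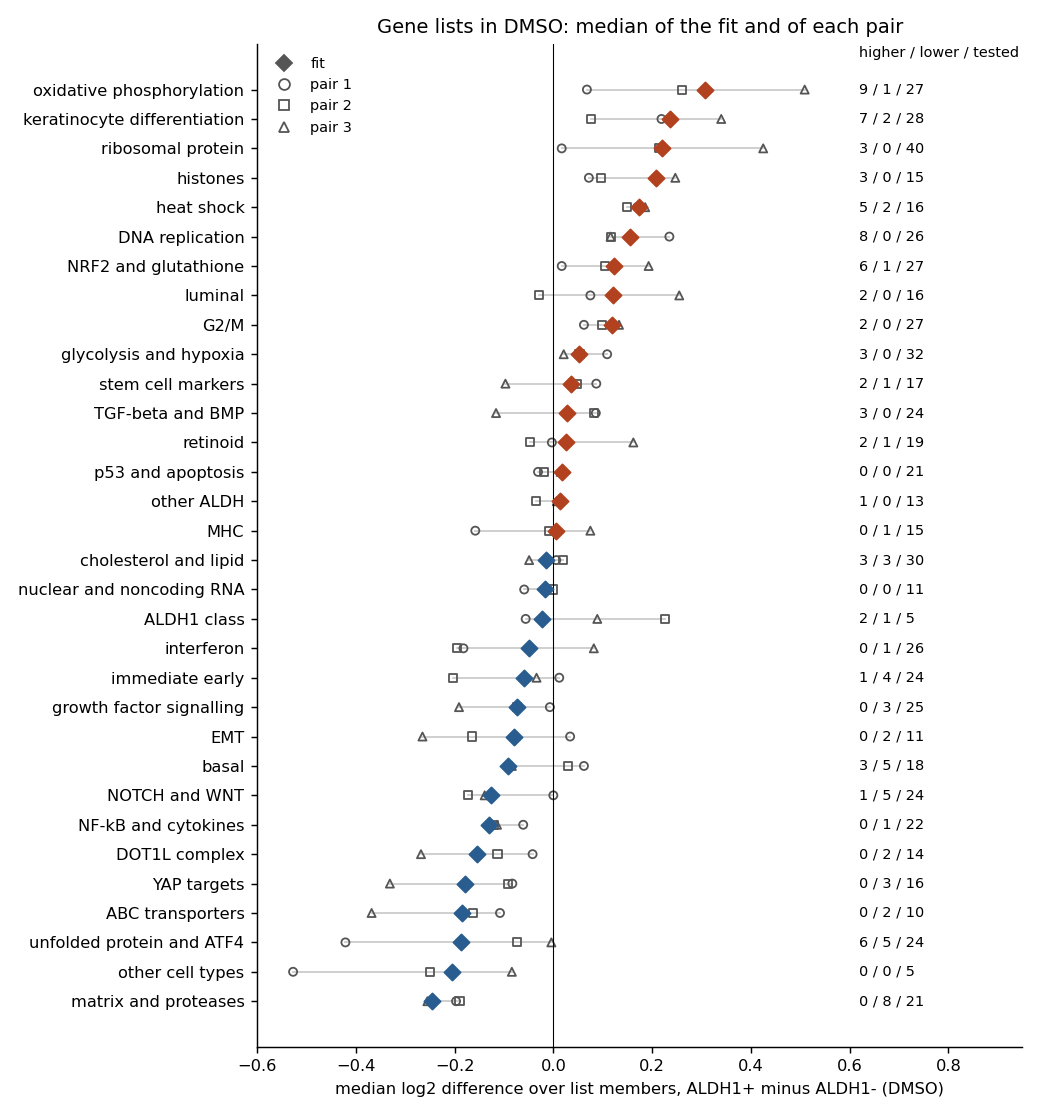
Median log2 difference of ALDH1+ over ALDH1- in DMSO for 32 gene lists (diamond, coloured by sign) and the same median in each pair (open symbols), with the number of genes called higher, called lower and tested at the right. Oxidative phosphorylation is at the top with 9 higher and 1 lower of 27, and matrix and proteases at the bottom with 0 higher and 8 lower of 21; where the 3 open symbols lie far apart, as for ribosomal proteins, the pairs differ in size.

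Over all genes tested that had a length, the log2 differences varied with gene length. The median exonic length was 3110 bases for genes called higher, 7649 for genes called lower and 4452 over all genes tested that had a length. In 4 length classes of about equal size, from the shortest to the longest genes, the median log2 difference was 0.095, 0.026, -0.03 and -0.089. The trend ran from 0.204 to -0.168 in pair 3, from 0.065 to -0.08 in pair 2 and from 0.003 to -0.015 in pair 1. With the trend of each library removed, 1195 genes were called, of which 893 were among the 1384. The oxidative phosphorylation list then had 5 higher and 1 lower and a median of 0.17. The ribosomal protein list had 4 higher, 0 lower and a median of 0.20, and RPL7 lost its call (adjusted p = 0.0522). Beyond these values with the trend removed, the part of gene length in the results was not tested.

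**Figure D4:**
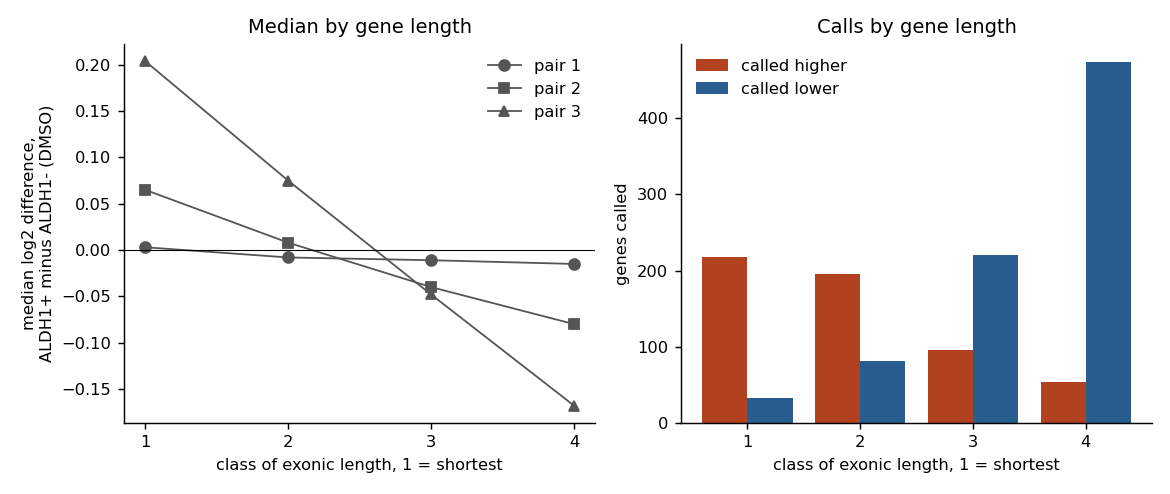
Left, the median log2 difference of ALDH1+ over ALDH1- within 4 classes of exonic gene length, from the shortest (1) to the longest (4), 1 line per pair. Right, the number of genes called higher and lower per class: 218 and 33 in the shortest, 53 and 474 in the longest, with pair 3 the steepest line and pair 1 nearly flat.

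In the remaining lists the number of calls varied, and it reads against the 8.48% called over all genes tested. Of 27 NRF2 and glutathione genes, 6 rose and 1 fell, the fall being SLC7A11. Among the rises were the aldo-keto reductases AKR1B1, AKR1B10, AKR1C1 and AKR1C2, at 0.31 (adjusted p = 0.0183), 0.39 (adjusted p = 0.0401), 0.43 (adjusted p = 0.0311) and 0.43 (adjusted p = 0.0282). Their groups overlapped in all 4, and AKR1C1 and AKR1C2 are close copies with uncertain counts. Cholesterol and lipid genes had 3 higher and 3 lower of 30, with the desaturase FADS2 at -0.69 (adjusted p = 0.0107) and the isoprenoid isomerase IDI1 at 0.34 (adjusted p = 0.013). The list named luminal had 2 higher, the keratins KRT19 and KRT15, and 0 lower of 16. Which lineage these 2 keratins mark here was not tested. Histone genes had 3 higher and 0 lower of 15, and ABC transporters 0 higher and 2 lower of 10. Immediate early genes had 1 higher and 4 lower of 24, among them FOSL1, a subunit of the AP-1 factor, at -0.40 (adjusted p = 0.0183). In the immune lists 1 gene fell in each and 0 rose: MX1 of 26 interferon genes, at -0.41 (adjusted p = 0.0218), ICAM1 of 22 NF-kB and cytokine genes, at -0.50 (adjusted p = 0.0249), and TAPBP of 15 MHC genes, at -0.23 (adjusted p = 0.0405). No gene was called among 21 p53 and apoptosis genes, 11 nuclear and noncoding RNAs or the 5 tested markers of other cell types. With the length trend removed, AKR1B10 and KRT19 lost their calls (adjusted p = 0.149 and 0.103). In the leave-outs, calls were lost without ALDH1- replicate 3 for all 11 (adjusted p 0.0651 to 0.296), ALDH1+ replicate 2 for AKR1B1, AKR1B10, AKR1C2, IDI1, KRT19, KRT15, MX1, ICAM1 and TAPBP (adjusted p 0.0547 to 0.0982), ALDH1+ replicate 3 for AKR1B10, AKR1C1, AKR1C2, KRT19, KRT15, FOSL1, MX1 and TAPBP (adjusted p 0.0628 to 0.192), ALDH1+ replicate 1 for AKR1B10, AKR1C1, KRT19, KRT15 and TAPBP (adjusted p 0.0513 to 0.0683), ALDH1- replicate 1 for AKR1B10, KRT19, KRT15 and MX1 (adjusted p 0.0676 to 0.078) and ALDH1- replicate 2 for AKR1C1, AKR1C2, ICAM1 and TAPBP (adjusted p 0.0629 to 0.0964).

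Cells treated with EPZ5676 offer the same sort in 6 other libraries. They share no library with the DMSO comparison, although the replicate block and the estimate of spread were common to both. In them 75 genes were called (0.459%), 31 higher (0.19%) and 44 lower (0.269%). Of the 564 genes higher in DMSO ALDH1+ cells, 505 also had a positive difference under EPZ5676 (89.5%), and of the 820 lower genes 719 had a negative one (87.7%). Over all genes tested 49.5% had a positive difference under EPZ5676. The median difference of the higher genes was 0.32 in DMSO and 0.15 under EPZ5676, and of the lower genes -0.33 and -0.10. In the same direction 11 higher and 21 lower genes were called in both, and none was called in opposite directions.

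Some named genes were called in both treatments and others in DMSO but not under EPZ5676. HSPA6 was at 0.820, 0.752 and 0.607 CPM in ALDH1+ and 8.36, 8.39 and 3.17 CPM in ALDH1- under EPZ5676, a difference of -3.13 ± 0.42 (SE, adjusted p = 0.00224), and CRYAB differed by -2.08 ± 0.18 (SE, adjusted p = 3.69e-05). KRT14 was at 122, 172 and 164 CPM in ALDH1+ and 62.7, 76.1 and 108 CPM in ALDH1-, a difference of 0.91 ± 0.089 (SE, adjusted p = 7.88e-05), and KRT16, KRT10 and KRT13 differed by 0.78, 0.64 and 1.10, each called. ALDH1A3 was at 1984, 2058 and 1818 CPM in ALDH1+ and 1424, 1412 and 1512 CPM in ALDH1-, a difference of 0.43 ± 0.073 (SE, adjusted p = 0.0158). VIM and AXL fell there too, with differences of -0.53 ± 0.11 (SE, adjusted p = 0.0467) and -0.47 ± 0.087 (SE, adjusted p = 0.0268). ALDH1A1 was at 12.8, 9.41 and 13.2 CPM in ALDH1+ and 13.9, 10.5 and 11.5 CPM in ALDH1-, a difference of -0.036 ± 0.10 (SE, adjusted p = 0.925). ALDH1L2 was at 52.1, 54.2 and 40.98 CPM in ALDH1+ and 51.7, 52.6 and 40.2 CPM in ALDH1-, with overlapping groups and a difference of 0.031 ± 0.12 (SE, adjusted p = 0.944). STC2, NIBAN1 and SLC7A5 were at -0.012, -0.18 and 0.072, and CRABP2 was at 0.059, none of them called.

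The difference between both treatments was tested directly. No gene passed in the edgeR test (0% of those tested), with 1463 genes at an unadjusted p below 0.05 and a smallest adjusted p of 0.297, while the DESeq2 Wald test called 12. For ALDH1L2 the DMSO difference minus the EPZ5676 difference was -1.01 ± 0.17 (SE, adjusted p = 0.297), for STC2 -1.18 ± 0.24 (SE, adjusted p = 0.297), for NIBAN1 -1.20 ± 0.22 (SE, adjusted p = 0.297) and for ALDH1A1 0.42 ± 0.14 (SE, adjusted p = 0.428). The calls made only in DMSO are therefore not shown to differ from the values under EPZ5676.

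**Figure D5:**
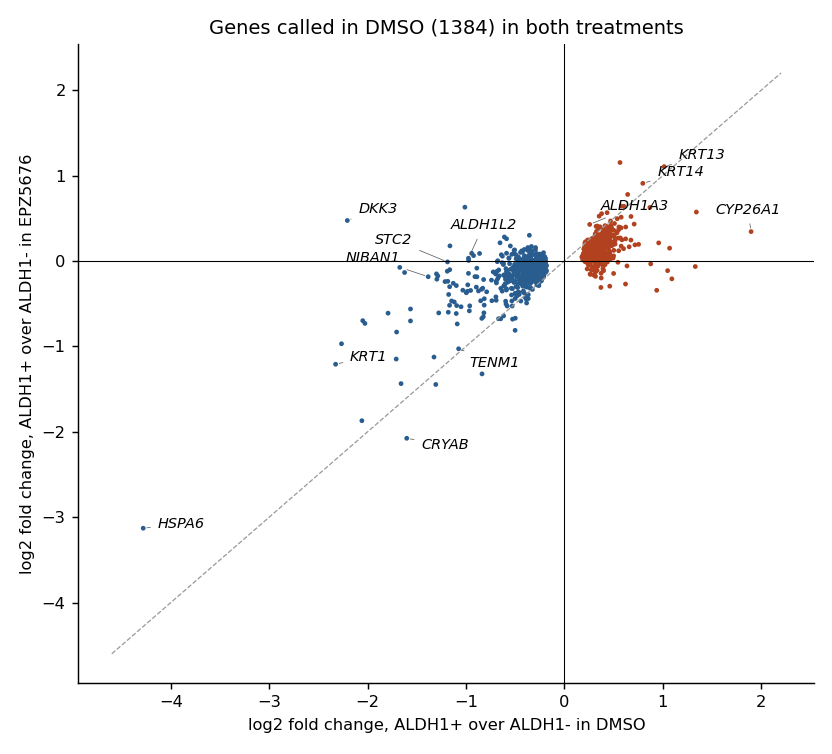
Log2 difference of ALDH1+ over ALDH1- in DMSO (horizontal axis) against the same under EPZ5676 (vertical axis) for the 1384 genes called in DMSO; the dashed line marks equal values. KRT13 and KRT14 lie near the dashed line, HSPA6 lies at -4.28 and -3.13, and ALDH1L2, STC2 and NIBAN1 lie between -0.185 and 0.031 on the vertical axis.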

How the data were processed

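Per the labels' protocols, sorted cells gave total RNA for libraries made with a strand-marking kit. Trim Galore, STAR and hg19 are listed, without versions, in the submitters' processing notes; how genes were counted, by strand or not and on which annotation, is not given in the sources used. The authors deposited raw read counts per gene under Ensembl identifiers, matched by columns that name treatment, population and replicate. Reads of overlapping or near-identical genes are therefore uncertain. Symbols, matched for 14892 of the 16327 genes tested (91.2%), lengths and promoter sequences came from GRCh38 tables; promoters were read for genes with 1 start in the table (324 called higher, 412 called lower).

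The model was fitted with edgeR 4.0.16 in R 4.3.3: filterByExpr by group, TMM factors (0.975 to 1.021), 1 quasi-likelihood model of 12 libraries with group and replicate number, and the quasi-likelihood F test, Benjamini-Hochberg adjusted over all genes, called below 0.05. The common biological coefficient of variation was 6.6%. Deviations from group means were correlated over 12219 genes whose mean log2 CPM reached 1. Same-numbered libraries in different groups were at 0.15 to 0.64 in all 18 combinations, and different numbers at -0.66 to 0.22 in 36. These ranges overlap: EPZ5676 ALDH1- replicate 2 was at 0.15 with EPZ5676 ALDH1+ replicate 2 and at 0.22 with DMSO ALDH1+ replicate 1. Between the DMSO groups, equal numbers were at 0.31 to 0.4 and unequal ones at -0.31 to -0.02. Pairing by number was part of how the comparison was defined, and these values only describe it. Replicates of a group differed by more than counting error (chi-square over its degrees of freedom 4.04 to 34.6). P-values measure only the spread between these libraries.

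Members and the 32 gene lists were chosen with earlier results of these data known. Named genes are the ALDH genes, DOT1L, the 12 largest rises and 12 largest falls among called genes whose mean log2 CPM reached 1 and whose pairs all moved 1 way, the 8 smallest p in each direction, and up to 5 called members of each list; some allowed names are not reported here. Alternatives were no block, a block within each treatment, a treatment's 6 libraries alone, and other scaling (edgeR's relative log expression, or none). Others were no filter, a filter of 1 CPM in 3 libraries, DESeq2 1.42.0, limma-voom (limma 3.58.1), thinning, and each library or replicate number left out.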

Additional observations from a re-analysis of the deposited data

How the results depend on the processing

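The pairing decided the count: without the replicate block 0 genes were called in DMSO, against 1384 with it, and 3 under EPZ5676, against 75. In DMSO, 892 were called from the 6 libraries alone and 2116 with no filter; the other scalings, filter, tools, thinning and length setting gave 1195 to 1746, and a block within each treatment 1025. Leave-outs gave 10 to 1618. Under EPZ5676, 186 were called from its 6 libraries alone, 632 with no filter, 171 by DESeq2 and 153 with the length trend removed, and leave-outs gave 10 to 1112. The difference between treatments had 1 call with a block within each treatment, 180 with no filter, 12 by DESeq2 and 0 to 17 over the leave-outs. The cause of these changes was not tested. Leave-outs and the 6-library fits hold fewer samples, and some of them called more genes than the full fit, others fewer. The setting with no filter adds genes of few counts. No named gene called in any setting reversed its direction in that setting. Of 136 called genes chosen by the naming rule or added later, 28 kept the call in each single leave-out and 108 lost it in at least 1. Without the block all 136 lost it, and 127 lost it when every library of replicate 1 was left out. Genes of a few counts, such as CYP26A1, are limited by depth.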
